A study of Rattus norvegicus with 6 samples.

Results

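The genes described here are 10 class II myosin heavy chain genes of the rat, Myh1, Myh2, Myh3, Myh4, Myh6, Myh7, Myh8, Myh9, Myh10 and Myh11, chosen by name and read from gene-level RNA-seq counts of cultured cells. Of the 10 genes, 9 have a row among the 30945 genes of the count files, and Myh1 has none under its name. The cells were cultures of primary vascular smooth muscle, the cell type that contracts the wall of the artery. The siRNA_ANK group (n = 3 libraries) carried a small interfering RNA against ANK, and the Negative_control group (n = 3 libraries) is labelled as the negative control. Both groups are the same cell type, and no other allele, agent, dose, time or animal age is given in the sources used here. ANK is the multipass membrane protein encoded by Ankh, known for its part in exporting pyrophosphate, an inhibitor of calcification. Whether a group's 3 libraries stem from different animals or cultures is not stated; all p-values therefore reflect only the spread between these libraries, which may be technical.

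Class II myosins are the motors that pull on actin filaments. Each has a pair of heavy chains, whose heads bind actin and split ATP and whose tails assemble into filaments, and each head carries light chains that stiffen and regulate it. Myh11 encodes the smooth muscle heavy chain, a late marker of the differentiated contractile smooth muscle cell. Myh9 and Myh10 encode the non-muscle IIA and IIB chains found in most cells. Myh1, Myh2 and Myh4 encode fast chains of adult skeletal muscle, Myh3 and Myh8 the embryonic and perinatal skeletal chains, and Myh6 and Myh7 the cardiac alpha and beta chains.

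Libraries held between 15641259 and 17441548 counts, and 13016 genes passed the filter on low counts and were tested. Ankh, the targeted gene, had 84.9, 76.7 and 120 CPM in the siRNA_ANK libraries, against 338, 351 and 367 CPM in the Negative_control libraries, where CPM is counts per 1000000 of the TMM-scaled library size. Its log2 fold change was -1.91 ± 0.16 (SE; edgeR quasi-likelihood test, Benjamini-Hochberg adjusted p = 0.000180). The siRNA_ANK replicate 3 library had the highest Ankh level of its group. Markers of smooth muscle were present in all libraries, none of the 8 being at 0, and their summed level ran from 5155 to 6173 CPM in siRNA_ANK libraries and from 2595 to 3608 CPM in Negative_control libraries. The skeletal muscle determination genes Myod1, Myog and Myf5 were at 0 counts in all 6 libraries, where 3 counts correspond to at most 0.190 CPM. The cardiac factor Nkx2-5, the endothelial genes Cdh5 and Kdr and the leukocyte and macrophage genes Ptprc, Adgre1 and Itgam were likewise at 0. Other markers of these cell types were detected in all 6 libraries. They included Acta1 and Tnnt3 (skeletal muscle), Tnnt2 and Ryr2 (cardiomyocyte), Erg and Tek (endothelial) and Cd14 and Cd68 (macrophage). The genes at 0 therefore do not show that transcripts of these cell types were absent, and the summed marker levels are given below.

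Of the 6 heavy chain genes that could be tested, Myh3, Myh2, Myh4, Myh11 and Myh10 rose in siRNA_ANK cells and Myh9 did not pass the test. A call is an adjusted p under 0.05 over all 13016 genes (edgeR quasi-likelihood test); 40.1% of all tested genes were called in either direction and 19.9% were called higher. In bulk cells, a larger share of cells with a transcript and more transcript per cell cannot be told apart. At least 2-fold higher levels were called for 4 of the 6, Myh3, Myh2, the Myh4 row and Myh11, against 4.56% of all tested genes. The median log2 fold change was 1.83 over the 6 and 0.01 over all tested genes. The heavy chain genes were chosen with earlier results of these data known, so these comparisons with all genes are descriptions only. The siRNA_ANK and Negative_control libraries did not overlap for 5 of the 6, Myh9 being the exception, where 25.7% of all tested genes had every siRNA_ANK library above every Negative_control library. No tested heavy chain gene was called lower, against 20.2% of all tested genes, none was lower at an unadjusted p under 0.05 (0 genes), and DESeq2 and limma-voom called 0 lower as well. Within the groups, siRNA_ANK replicate 3 was the lowest of its 3 libraries and Negative_control replicate 2 the highest of its 3 for all 6 genes.

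**Figure D1:**
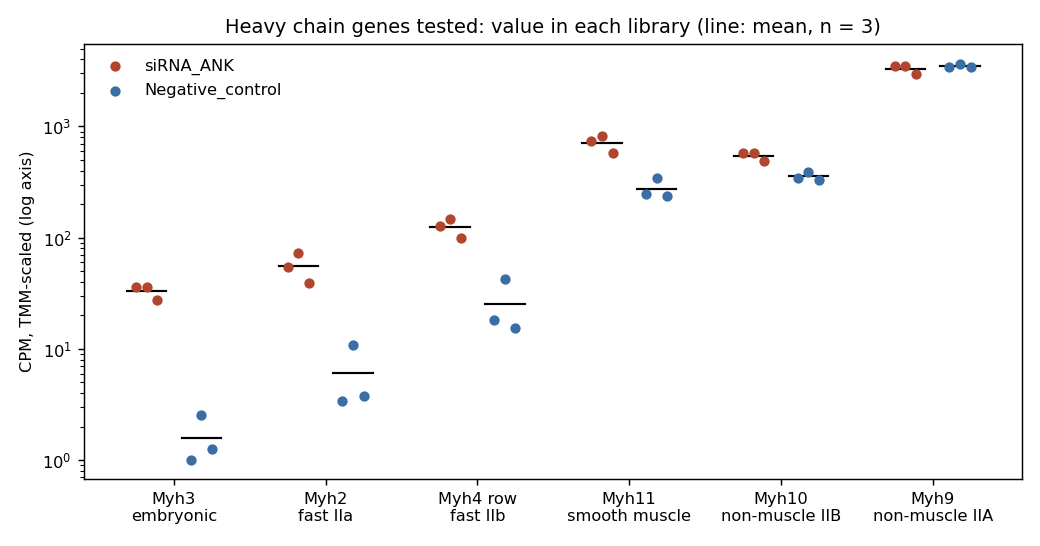
CPM of the 6 tested heavy chain genes in each library on a log axis, siRNA_ANK left and Negative_control right; points are libraries and lines are group means. Every siRNA_ANK library lies above every Negative_control library except for Myh9, whose groups overlap.

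Myh3, the embryonic skeletal chain (ENSRNOG00000046276, chromosome 10, 51770177 to 51793992, plus strand, mRatBN7.2), had the largest log2 fold change of the 6 tested chains. It had 600, 597 and 431 counts in siRNA_ANK libraries, against 18, 44 and 20 counts in Negative_control libraries. As levels these were 36.0, 35.8 and 27.3 CPM in siRNA_ANK cells, against 1.01, 2.53 and 1.25 CPM in Negative_control cells. The lowest siRNA_ANK library was thus above the highest Negative_control library, and the transcript was low but detected in every Negative_control library. Mean levels were 33.0 ± 4.95 CPM in siRNA_ANK cells and 1.60 ± 0.818 CPM in Negative_control cells (SD, n = 3 each), and the log2 fold change was 4.36 ± 0.23 (SE; edgeR adjusted p = 2.95e-07). Only 4 of the 13016 tested genes had a larger log2 fold change. Leaving out each library in turn gave values between 4.10 and 4.86.

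Myh2, the fast IIa chain (ENSRNOG00000065740, chromosome 10, 51856738 to 51883236, plus strand), is the next heavy chain gene after Myh3 on the chromosome. It had 908, 1215 and 614 counts in siRNA_ANK libraries, against 61, 190 and 61 counts in Negative_control libraries. Its level was 54.4, 72.8 and 38.9 CPM in siRNA_ANK cells, against 3.43, 10.9 and 3.81 CPM in Negative_control cells. Negative_control replicate 2 stood at well above the other Negative_control libraries and still below every siRNA_ANK library. The log2 fold change was 3.18 ± 0.53 (SE; edgeR adjusted p = 0.0105), between 2.89 and 3.93 with each library left out, and 31 genes had a larger one.

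The row named Myh4, a gene known for the fast IIb chain (ENSRNOG00000049695, chromosome 10, 51885913 to 51946295, plus strand), starts 2677 bases after the end of Myh2. It had 2114, 2464 and 1564 counts in siRNA_ANK libraries, against 327, 737 and 246 counts in Negative_control libraries. Its level was 127, 148 and 99.02 CPM in siRNA_ANK cells, against 18.4, 42.4 and 15.4 CPM in Negative_control cells. The groups did not overlap, and the spread within the Negative_control group was wide. The log2 fold change was 2.29 ± 0.46 (SE; edgeR adjusted p = 0.0194). The call was lost without siRNA_ANK replicate 1 (adjusted p = 0.0618), siRNA_ANK replicate 2 (adjusted p = 0.0670), Negative_control replicate 1 (adjusted p = 0.0681) or Negative_control replicate 3 (adjusted p = 0.0511), and the log2 fold change stayed between 2.03 and 2.88 with each library left out.

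The Myh4 row appears to count more than Myh4. Its length, 12070 bases, was 1.998 times that of Myh2, 1.93 times that of Myh3 and 1.97 times that of Myh8, and the file describes it by similarity to a myosin-1 protein of cattle. In the RefSeq gene order of the rat, Myh1 lies between Myh2 and Myh4, and the count files hold no Myh1 row. On the GRCr8 build, the bases before the start site, given below, begin at 52355489 for Myh2, 52384662 for Myh1 and 52421898 for Myh4. The step from Myh2 to Myh1 there is close to that from Myh2 (51856738) to this row (51885913) on mRatBN7.2. By the same spacing the start of Myh4 falls inside the row. The row thus appears to cover both genes. Reads of Myh1, the fast IIx chain, and of Myh4 cannot be told apart in it. The coding sequences of the skeletal chains are also close to each other in general, and how reads that match several of them were counted is not given in the sources used here, so the split between Myh3, Myh2 and the Myh4 row is uncertain. The sum of the 3 rows was 3622, 4276 and 2609 counts in siRNA_ANK libraries, against 406, 971 and 327 counts in Negative_control libraries, and it did not overlap.

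Myh8, the perinatal chain and the next gene along (chromosome 10, 51963510 to 51993232, plus strand), had 0 counts in every library but Negative_control replicate 1, which had 1 count. It was too low to test. Myh6 (chromosome 15, 28417616 to 28441720, minus strand) and Myh7 (chromosome 15, 28446550 to 28468217, minus strand), the paired cardiac genes, had 0 counts in all 6 libraries, where 3 counts, the limit that a count of 0 allows, correspond to at most 0.190 CPM for counting error only. Of the 10 genes, then, 1 had no row, 3 had a row and were too low to test, and 6 were tested, each with at least 10 counts in every Negative_control library.

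The 250 bases before the start site of the skeletal genes whose rows rose, and of Myh1, are shown because these genes lie in 1 cluster and the Myh3, Myh2 and Myh4 rows all rose. They are RefSeq sequences of the GRCr8 build, plus strand, 5′ to 3′. This build is not that of the counts, so only spacings, not single coordinates, can be set beside those above. Capitals mark 2 runs: TATAAAAG, found in all 4 windows, and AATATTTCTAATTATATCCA, the longest run shared by Myh1, Myh2 and Myh4.
Myh3, chr10:52268935-52269184: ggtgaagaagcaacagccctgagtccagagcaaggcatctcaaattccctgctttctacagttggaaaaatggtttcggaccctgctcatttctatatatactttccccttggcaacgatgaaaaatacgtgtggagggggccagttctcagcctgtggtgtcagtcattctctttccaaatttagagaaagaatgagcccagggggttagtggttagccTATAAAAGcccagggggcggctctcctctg
Myh2, chr10:52355489-52355738: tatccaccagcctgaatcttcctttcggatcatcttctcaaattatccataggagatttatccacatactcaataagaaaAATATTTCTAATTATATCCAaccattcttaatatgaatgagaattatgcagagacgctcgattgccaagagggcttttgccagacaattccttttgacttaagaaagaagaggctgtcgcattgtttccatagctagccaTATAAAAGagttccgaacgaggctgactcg
Myh1, chr10:52384662-52384911: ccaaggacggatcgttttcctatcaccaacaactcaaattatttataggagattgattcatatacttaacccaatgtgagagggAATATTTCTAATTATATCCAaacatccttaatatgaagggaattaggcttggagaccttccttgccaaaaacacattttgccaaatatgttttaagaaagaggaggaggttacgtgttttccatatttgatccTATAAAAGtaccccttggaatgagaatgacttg
Myh4, chr10:52421898-52422147: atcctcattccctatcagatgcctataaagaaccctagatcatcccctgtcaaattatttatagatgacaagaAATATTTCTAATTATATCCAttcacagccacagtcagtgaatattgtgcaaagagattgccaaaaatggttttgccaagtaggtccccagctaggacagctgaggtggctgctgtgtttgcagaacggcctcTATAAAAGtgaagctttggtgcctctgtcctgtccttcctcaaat

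The run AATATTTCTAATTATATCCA has 20 bases and begins 166 bases before the start site of Myh1, 170 before that of Myh2 and 177 before that of Myh4; Myh3 does not hold it. It was found in 5 of the 33469 promoter windows of 300 bases (250 before and 50 after the start), 0.0149%, the others being windows of a long non-coding RNA gene that lies between Myh1 and Myh4. TATAAAAG begins 30 bases before the start of Myh3 and Myh2, 33 before that of Myh1 and 45 before that of Myh4, and 1.69% of all windows hold it. Searched on both strands, TATAAA occurred in 14.2% of all windows and the E-box CANNTG, the core bound by basic helix-loop-helix factors such as the myogenic ones, in 72.1%; the Myh3 window has 1 E-box, 192 bases before the start, the Myh4 window 3 and those of Myh1 and Myh2 none. The CArG box, bound by serum response factor, occurred in 1.64% of all windows and 1 time in that of Myh4, 118 bases before the start. The MEF2 site occurred in 3.29% of all windows and 1 time each in those of Myh1, Myh4 and 1 of the 2 Myh9 windows, each time overlapping a TATAAA match. These matches are descriptions of the letters only. The table holds windows for 9 of the 10 genes, all but Myh11.

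None of the other tested genes around the skeletal heavy chains rose by the test. With a start within 500000 bases of that of Myh3, Tmem220 had 2.99 ± 1.32 CPM in siRNA_ANK cells and 3.92 ± 0.499 CPM in Negative_control cells (SD, n = 3 each; edgeR adjusted p = 0.27). It was called lower without siRNA_ANK replicate 3 alone (log2 fold change -0.77, adjusted p = 0.0180). Adprm, an ADP-ribose and CDP-alcohol diphosphatase gene, had 15.5 ± 2.38 CPM in siRNA_ANK cells and 15.4 ± 0.637 CPM in Negative_control cells (SD, n = 3 each; edgeR adjusted p = 0.961). Sco1, a copper chaperone of cytochrome c oxidase, had 15.5 ± 0.553 CPM in siRNA_ANK cells and 13.7 ± 0.899 CPM in Negative_control cells (SD, n = 3 each; edgeR adjusted p = 0.171). Gas7, an actin-binding protein gene first described in growth arrest, fell to 58.0 ± 7.17 CPM in siRNA_ANK cells, against 96.4 ± 2.26 CPM in Negative_control cells (SD, n = 3 each; log2 fold change -0.73 ± 0.08, edgeR adjusted p = 5.82e-06). Pirt had 0 counts in all libraries, and a row described as myosin-13 had 0, 3 and 0 counts in siRNA_ANK libraries, against 3, 0 and 2 counts in Negative_control libraries. The 3 heavy chain rows were thus the tested genes of this stretch that rose.

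**Figure D2:**
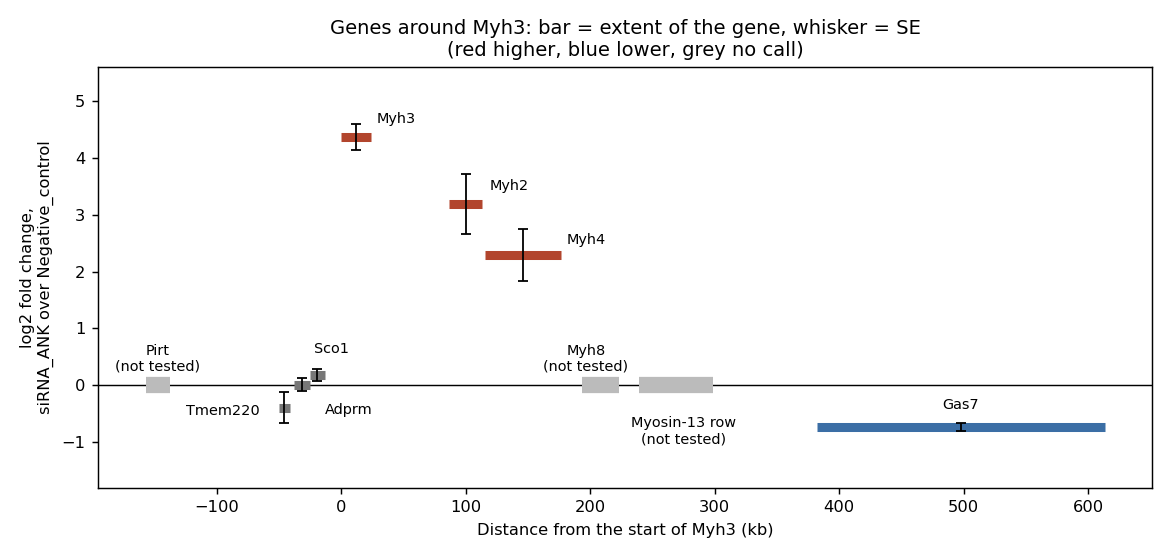
Log2 fold change of siRNA_ANK over Negative_control for genes with a start within 500000 bases of that of Myh3, against distance from that start in kb; horizontal bars span the gene and whiskers are the SE. Myh3, Myh2 and the Myh4 row lie above 2, Gas7 is lower, and Tmem220, Adprm and Sco1 were not called.

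Myh11, the smooth muscle chain (ENSRNOG00000057880, chromosome 10, 743685 to 838459, plus strand), is far from this cluster on the same chromosome. It had 12349, 13591 and 9155 counts in siRNA_ANK libraries, against 4394, 5964 and 3812 counts in Negative_control libraries. Its level was 740, 814 and 580 CPM in siRNA_ANK cells, against 247, 343 and 238 CPM in Negative_control cells. All siRNA_ANK libraries were above all Negative_control libraries. The means were 711 ± 120 CPM in siRNA_ANK cells and 276 ± 58.3 CPM in Negative_control cells (SD, n = 3 each), and the log2 fold change was 1.36 ± 0.20 (SE; edgeR adjusted p = 0.00362), between 1.25 and 1.55 with each library left out. By mean CPM it was the gene of rank 138 in siRNA_ANK cells and of rank 534 in Negative_control cells.

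The non-muscle chains differed from each other. Myh10, the IIB chain (ENSRNOG00000002886, chromosome 10, 53394389 to 53525165, plus strand), had 578, 574 and 490 CPM in siRNA_ANK cells, against 343, 392 and 332 CPM in Negative_control cells. The groups did not overlap, and the log2 fold change was 0.62 ± 0.08 (SE; edgeR adjusted p = 3.40e-05), between 0.57 and 0.69 with each library left out. Myh9, the IIA chain (ENSRNOG00000049236, chromosome 7, 109343706 to 109424457, minus strand), had 3498, 3489 and 2933 CPM in siRNA_ANK cells, against 3423, 3656 and 3413 CPM in Negative_control cells. These ranges overlap, the log2 fold change was -0.08 ± 0.07 (SE) and the edgeR adjusted p was 0.361. Myh9 was by far the most abundant heavy chain transcript, at rank 17 of all genes in siRNA_ANK cells and rank 20 in Negative_control cells.

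Among heavy chain genes outside the 10, none was called. Myh7b, a slow-type chain gene that also hosts a microRNA, had 51, 26 and 18 counts in siRNA_ANK libraries, against 26, 34 and 23 counts in Negative_control libraries (log2 fold change 0.25, edgeR adjusted p = 0.608), and its direction turned without siRNA_ANK replicate 1 (-0.26). Myh14, the non-muscle IIC chain, had between 5 and 10 counts in siRNA_ANK libraries and between 4 and 10 counts in Negative_control libraries and was not tested.

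To set the chains side by side, CPM was divided by the length of each gene's counted exons in kb. In siRNA_ANK cells the order of this level per length was Myh9 (348 ± 34.1), Myh11 (106 ± 17.9), Myh10 (69.5 ± 6.34), the Myh4 row (10.3 ± 2.02), Myh2 (9.16 ± 2.81) and Myh3 (5.29 ± 0.793; mean CPM per kb ± SD, n = 3). Of these neighbours, the Myh4 row and Myh2 overlapped between libraries and the others did not. In Negative_control cells the order was Myh9 (369 ± 14.5), Myh10 (45.2 ± 4.08), Myh11 (41.2 ± 8.70), the Myh4 row (2.10 ± 1.23), Myh2 (1.003 ± 0.700) and Myh3 (0.256 ± 0.131; mean CPM per kb ± SD, n = 3). There Myh10 and Myh11 overlapped, as did the Myh4 row and Myh2. The difference in order between the groups was that Myh11 stood above Myh10 in siRNA_ANK cells.

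As a share of all heavy chain CPM per kb, Myh11 took 19.1%, 20.5% and 18.1% in siRNA_ANK libraries, against 8.31%, 10.4% and 8.08% in Negative_control libraries. Myh9 took 63.8%, 62.1% and 64.8% in siRNA_ANK libraries, against 81.3%, 78.3% and 81.8% in Negative_control libraries. The skeletal rows, Myh3, Myh2 and Myh4 summed, took 4.38%, 5.07% and 3.99% in siRNA_ANK libraries, against 0.508%, 1.17% and 0.479% in Negative_control libraries. For each of these shares the groups did not overlap, and since the shares add up to the whole, a higher share of one chain lowers the others. The skeletal rows remained a minor part of the heavy chain transcripts in every library. Among these rows, Myh3 made up 22.8%, 19.1% and 23.0% of their CPM per kb in siRNA_ANK libraries, against 7.19%, 7.08% and 9.51% in Negative_control libraries.

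**Figure D3:**
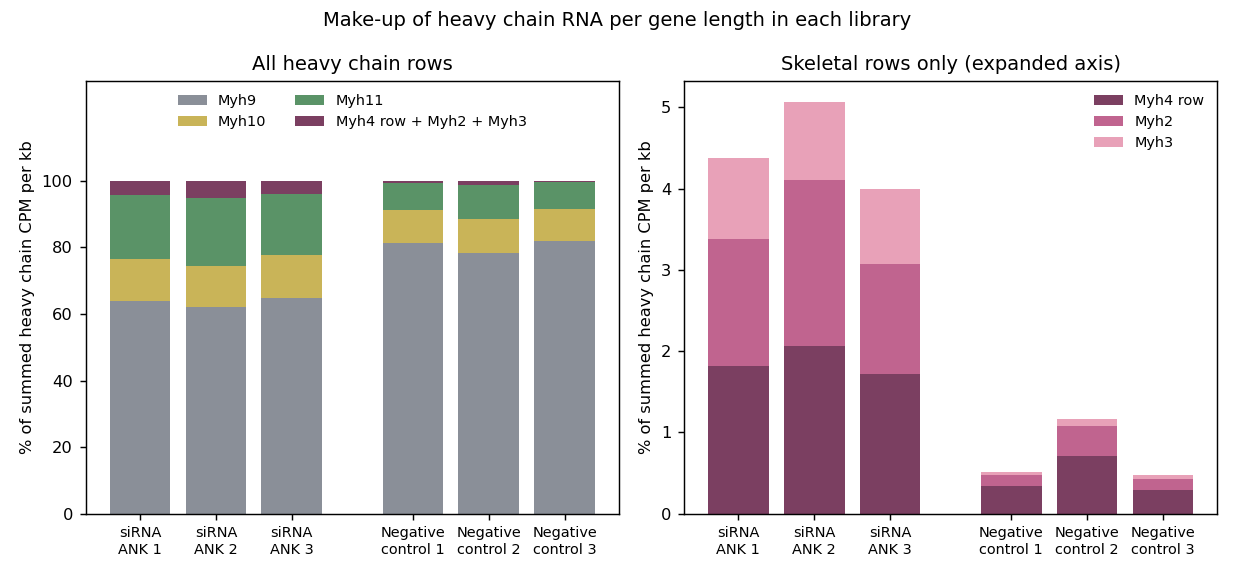
Share of heavy chain CPM per kb of exon in each library, in percent, for all 6 tested chains and enlarged for the skeletal rows, siRNA_ANK left and Negative_control right. Myh9 took 62.1% to 64.8% in siRNA_ANK libraries and 78.3% to 81.8% in Negative_control libraries.

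Ratios of chains within a library do not depend on its scaling. The log2 ratio of Myh11 to Myh9 per length was -1.72 ± 0.12 in siRNA_ANK libraries and -3.18 ± 0.23 in Negative_control libraries (SD, n = 3 each), a difference of 1.46. That of Myh11 to Myh10 was 0.60 ± 0.13 in siRNA_ANK libraries and -0.15 ± 0.16 in Negative_control libraries (SD, n = 3 each), a difference of 0.75. That of Myh3 to Myh11 was -4.32 ± 0.07 in siRNA_ANK libraries and -7.40 ± 0.41 in Negative_control libraries (SD, n = 3 each), a difference of 3.07, and the difference for Myh10 to Myh9 was 0.71. Each of the 4 ratios was higher in all 3 siRNA_ANK libraries than in any Negative_control library. The exact two-sided permutation p was 0.1 for each, also after adjustment over the 4, which is the smallest p that 3 libraries against 3 allow, so none can pass 0.05.

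Light chains bind the neck of each heavy chain. Of 12 light chain genes, 4 were tested and all 4 rose, where 19.9% of all tested genes were called higher; their median log2 fold change was 0.59. The light chains of fast skeletal muscle were near 0 and too low to test, Mylpf with 0, 2 and 0 counts in siRNA_ANK libraries, against 1, 6 and 3 counts in Negative_control libraries, and Myl1 with 1 count, in siRNA_ANK replicate 1; both are named after their values were seen. Myl9, the regulatory light chain of smooth muscle, had 473 ± 50.9 CPM in siRNA_ANK cells and 280 ± 45.0 CPM in Negative_control cells (SD, n = 3 each; log2 fold change 0.76 ± 0.12, edgeR adjusted p = 0.00181). Myl12a, a regulatory light chain of non-muscle myosin, had 887 ± 41.5 CPM in siRNA_ANK cells and 665 ± 66.5 CPM in Negative_control cells (SD, n = 3 each; edgeR adjusted p = 0.000260). Myl4, the light chain of atrium and embryonic muscle, and Myl6, the essential light chain of smooth muscle and non-muscle myosin, had adjusted p-values of 0.0266 and 0.0476 in the edgeR fit. Both lost their call without siRNA_ANK replicate 2 (adjusted p = 0.107 and 0.161), Negative_control replicate 1 (adjusted p = 0.0946 and 0.109) or Negative_control replicate 3 (adjusted p = 0.0881 and 0.248), which leaves 2 of the 4, and Myl6 also without siRNA_ANK replicate 1 (adjusted p = 0.104) and with RLE scaling (adjusted p = 0.0530) or DESeq2 (adjusted p = 0.0637).

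The enzymes that switch myosin on and off through light chain phosphorylation were divided. Of 19 genes, 16 were tested, 7 rose, 5 fell and 4 were not called, with a median log2 fold change of 0.08. Calls in both directions were also made over all tested genes, 19.9% higher and 20.2% lower. Rock2, a kinase that restrains myosin phosphatase, had 422 ± 46.8 CPM in siRNA_ANK cells and 291 ± 10.4 CPM in Negative_control cells (SD, n = 3 each; edgeR adjusted p = 5.15e-05). Cald1, the actin-binding regulator caldesmon, and Ppp1r14a, the smooth muscle inhibitor of myosin phosphatase, rose with log2 fold changes of 0.58 and 0.64. Ppp1r14b, a related inhibitor, fell with a log2 fold change of -0.45 (edgeR adjusted p = 9.69e-05). Mylk, the myosin light chain kinase, named after its value was seen, had 274 ± 39.0 CPM in siRNA_ANK cells and 134 ± 27.2 CPM in Negative_control cells (SD, n = 3 each; log2 fold change 1.03 ± 0.17, edgeR adjusted p = 0.00476).

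A list of 18 genes was set around myosin folding and assembly, and not all of them act in these steps. Of the 18, 9 were tested and 4 rose, where 19.9% of all tested genes were called higher. The median log2 fold change was 0.10. The chaperone genes Unc45a, Hsp90aa1 and Hsp90ab1, named after their values were seen, were not called (edgeR adjusted p = 0.247, 0.196 and 0.375). Mtss1, an actin and membrane binding protein, had 165 ± 40.3 CPM in siRNA_ANK cells and 48.6 ± 6.09 CPM in Negative_control cells (SD, n = 3 each; log2 fold change 1.76, edgeR adjusted p = 0.00193). Myom1, the M-band protein myomesin, had 9.49 ± 2.41 CPM in siRNA_ANK cells and 5.64 ± 0.823 CPM in Negative_control cells (SD, n = 3 each; edgeR adjusted p = 0.00593). Mybpc2, the fast myosin-binding protein C, and Fbxo32, the atrophy ubiquitin ligase, were near the threshold with edgeR adjusted p-values of 0.0448 and 0.0423. DESeq2 called neither (adjusted p = 0.119 and 0.0708), and neither was called without siRNA_ANK replicate 1 (0.0605 and 0.0615), siRNA_ANK replicate 2 (0.0817 and 0.238) or Negative_control replicate 1 (0.154 and 0.122), which leaves 2 of the 9, near the share of all tested genes. Mybpc2 was also lost without siRNA_ANK replicate 3 (adjusted p = 0.139) or Negative_control replicate 3 (adjusted p = 0.126) and Fbxo32 without Negative_control replicate 2 (adjusted p = 0.128). Unc45b, the chaperone of striated muscle myosin, was at 0 counts in all libraries, as were Mybph and Myom2.

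Of 35 other genes of the skeletal and cardiac sarcomere, 14 were tested and 7 rose, where 19.9% of all tested genes were called higher. Their median log2 fold change was 0.84. Acta1, skeletal alpha actin, had 15.8 ± 1.47 CPM in siRNA_ANK cells and 3.98 ± 0.491 CPM in Negative_control cells (SD, n = 3 each; log2 fold change 1.98 ± 0.14, edgeR adjusted p = 7.79e-08). Xirp1, an actin-binding protein of striated muscle junctions, had 6.59 ± 1.76 CPM in siRNA_ANK cells and 1.49 ± 0.497 CPM in Negative_control cells (SD, n = 3 each; log2 fold change 2.13, edgeR adjusted p = 2.65e-05). Nrap, a protein of forming myofibrils, and Tnnc1, the slow and cardiac troponin C, rose with log2 fold changes of 1.51 and 1.43. Of the 35, 7 were at 0 counts in all libraries, among them Actc1, Tnni1, Tnni2 and Tnnt1. The summed level of the 8 skeletal muscle markers ran from 16.7 to 19.7 CPM in siRNA_ANK cells and from 6.81 to 7.26 CPM in Negative_control cells. Of its 2 tested genes 1, Acta1, was called, and it made up most of this sum in both groups. The other, Tnnt3, had 2.30 ± 0.152 CPM in siRNA_ANK cells and 2.68 ± 0.682 CPM in Negative_control cells (SD, n = 3 each, edgeR adjusted p = 0.510).

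Few regulators of skeletal muscle genes were called. Of 19 myogenic factors and fusion genes, 7 were tested, 1 rose and 1 fell, with a median log2 fold change of 0.13. Over all tested genes, 19.9% were called higher and 20.2% lower. Myod1, Myf5, Myf6, Myog, Mymx, Pax3 and Pax7 had 0 counts in all libraries. Mef2c, a partner of the myogenic factors that is also active in smooth muscle, had 18.9 ± 2.80 CPM in siRNA_ANK cells and 14.4 ± 1.03 CPM in Negative_control cells (SD, n = 3 each; edgeR adjusted p = 0.0133), and its call was lost without siRNA_ANK replicate 2 (adjusted p = 0.0810) or Negative_control replicate 2 (adjusted p = 0.0563).

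A list of 15 regulators was set around myocardin and serum response factor, the activators of smooth muscle genes, and it holds repressors as well as activators. Of these, 14 were tested, 9 rose and 2 fell, with a median log2 fold change of 0.47. Over all tested genes, 19.9% were called higher and 20.2% lower. Hey1, Hey2 and Heyl, repressors downstream of Notch, rose with log2 fold changes of 1.65, 0.68 and 2.12, and Tead3, a partner of the YAP coactivators, with 0.60. Myocd and Srf are named after their values were seen. Myocd had 26.6 ± 7.16 CPM in siRNA_ANK cells and 8.56 ± 2.35 CPM in Negative_control cells (SD, n = 3 each; log2 fold change 1.63, edgeR adjusted p = 0.00297). Srf had 57.5 ± 1.36 CPM in siRNA_ANK cells and 76.2 ± 4.44 CPM in Negative_control cells (SD, n = 3 each; log2 fold change -0.40, edgeR adjusted p = 0.000155). Of the 2 genes that fell, 1 was called without siRNA_ANK replicate 1, siRNA_ANK replicate 2, Negative_control replicate 1 or Negative_control replicate 3.

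Of 18 other genes of the smooth muscle contractile apparatus, 17 were tested and 13 rose, where 19.9% of all tested genes were called higher. Their median log2 fold change was 0.59. The actin-associated proteins Synpo2 and Pdlim3 rose with log2 fold changes of 1.49 and 1.15, and Tpm1, tropomyosin, with 0.78. Among markers of other cell types, 5 of 6 tested adventitial fibroblast markers rose, also beside 19.9% of all tested genes. Their summed level ran from 192 to 203 CPM in siRNA_ANK cells and from 118 to 127.6 CPM in Negative_control cells. The endothelial markers summed to between 17.2 and 21.8 CPM in siRNA_ANK cells and between 5.19 and 6.97 CPM in Negative_control cells, with Erg called higher, and the macrophage markers summed to between 11.2 and 14.9 CPM in siRNA_ANK cells and between 24.8 and 28.0 CPM in Negative_control cells, with Cd14 called lower. The cardiomyocyte markers summed to between 3.99 and 4.08 CPM in siRNA_ANK cells and between 1.58 and 2.48 CPM in Negative_control cells, and neither of the 2 tested, Tnnt2 and Ryr2, was called. The part of the fibroblast, endothelial and macrophage markers in the heavy chain results was not tested.

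**Figure D4:**
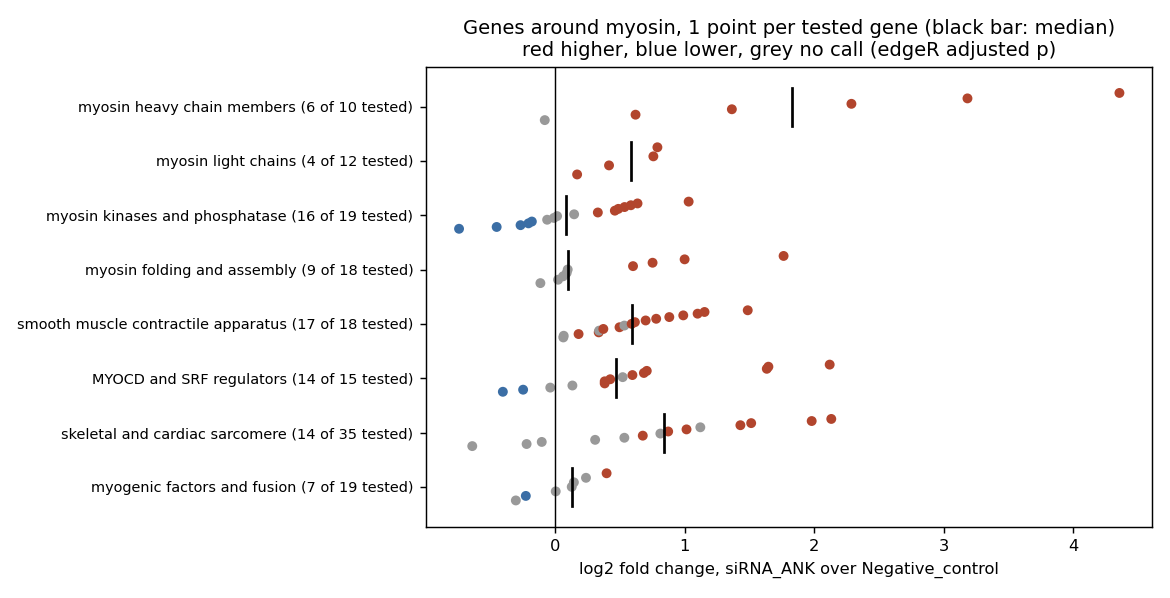
Log2 fold change of siRNA_ANK over Negative_control for each tested gene of the heavy chains and of the related gene lists, with the median of each list; red points were called higher and blue points lower at an adjusted p under 0.05, grey points were not called. The heavy chains have a median of 1.83, the sarcomere genes of 0.84 and the myosin kinases and phosphatase genes of 0.08.

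Over the 6 libraries and 10020 genes of at least 5 CPM on average, the genes whose log2 CPM followed Myh3 most closely by Pearson correlation were Tbc1d23, the forkhead factor Foxc1, the efflux transporter Abcb1b (ENSRNOG00000066042, a symbol found on 2 rows), the receptor phosphatase Ptprd and the phospholipase Plcb4, and 209 genes had a correlation over 0.99. Those closest to Myh11 were the LIM protein Lmcd1, the BMP-binding protein Bmper, the semaphorin Sema3f, Fndc1 and the junction protein Jam3, with 160 genes over 0.99. Myh10 was at rank 35 in likeness to Myh11 (r = 0.997), Myh2 at rank 56 (r = 0.995) and the Myh4 row at rank 152 (r = 0.991), while Myh3 was at rank 292 (r = 0.984) and Myh9 had r = -0.17. In likeness to Myh3, Myh11 was at rank 377 (r = 0.984) and Myh2 at rank 382 (r = 0.984). The points share the difference between the 2 groups, which sets most of each correlation, so these ranks are descriptions of 6 libraries.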

How the data were processed

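Gene counts of 6 RNA-seq libraries from rat smooth muscle cells were used, 3 siRNA_ANK and 3 Negative_control. The deposited values are raw read counts per gene, which the authors made with featureCounts 1.5.0-p3 on the mRatBN7.2 build, per the submitters' processing notes; these also name DESeq2. No source used here gives the aligner, the strand setting or how reads with several matches were treated. Gene positions and lengths are the files' own. Rows without a symbol took between 0.306% and 0.339% of counts and stayed in the fit under their gene identifiers.

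Counts were filtered (filterByExpr, minimum count 10, minimum total 15), scaled by TMM and tested two-sided with the robust quasi-likelihood test of edgeR 4.0.16 in R 4.3.3. Benjamini-Hochberg adjustment ran over 13016 genes, with calls at an adjusted p under 0.05. For the SE, the log2 fold change without its sign was divided by the square root of F. Libraries held 15641259 to 17441548 counts; limits for a count of 0 (3 counts) cover counting error only. Log2 ratios used an added 0.5 counts and the exact permutation test of scipy 1.17.1; likeness used log2(CPM + 0.5). Alternatives were RLE and upper quartile scaling, DESeq2 1.42.0, limma-voom (limma 3.58.1), other filters, a replicate block and each library left out. Scripts were tested on simulated data.

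The 10 genes and all gene lists were chosen with earlier results of these data known. Named genes are the 10 genes, other Myh genes, genes starting within 500000 bases of Myh3, up to 4 called genes per list by smallest adjusted p, the 5 genes most like Myh3 and Myh11, and Ankh; others are marked where named. Some genes that this rule names are not reported here.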

Additional observations from a re-analysis of the deposited data

How the results depend on the processing

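The heavy chain genes called higher numbered 5 with RLE or upper quartile scaling, DESeq2, limma-voom and both other filters, and between 4 and 5 with each library left out, Myh4 being the gene lost; none was called lower under any of these. Of 48 tested genes named here, 37 kept the same direction and call under all 14 alternatives. Over all genes, calls numbered 2236 higher and 2380 lower with DESeq2, against 2594 and 2629 with edgeR, and 1991 to 2874 higher and 2062 to 2976 lower with each library left out. Whether the replicate numbers pair the samples is not stated. Correlations of deviations for the same number were small (-0.03, 0.06 and 0.04), which cannot settle it with 3 libraries per group. The replicate block gave 2579 higher and 2631 lower calls and 5 heavy chain genes. Mybpc2 lost its call under the block (edgeR adjusted p = 0.0584) and with no filter beyond 1 count (edgeR adjusted p = 0.0801). Left out together, which was chosen after seeing the data, siRNA_ANK replicate 3 and Negative_control replicate 2 gave differences in log2 ratio of 1.65 for Myh11 to Myh9 and 0.91 for Myh11 to Myh10, both larger. Signs turned only for changes that were not called: Myh9 to 0.030 and Adprm to -0.14 without these libraries together, Adprm to -0.12 without siRNA_ANK replicate 3, to -0.01 without Negative_control replicate 2 or 3 (-0.12 to 0.10 with each library left out) and to -0.0043 with limma-voom, and Myh7b to -0.26 without siRNA_ANK replicate 1 (-0.26 to 0.51 with each library left out). Without both libraries, 5 heavy chain genes were called higher. The sarcomere genes called higher numbered 4 where genes under a mean of 5 CPM were dropped and 11 without both libraries. The cause of these shifts was not tested. Depth limits Myh6 and Myh7, whose counts of 0 allow a level of up to 0.190 CPM, and Myh8, with 1 count.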
